A study of Mus musculus with 6 samples.

Results

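The 40 genes described here are transcribed as a cell copies its DNA and divides. Of these, 20 belong to G2 and mitosis (the G2/M members) and 20 to DNA synthesis (the S members). They were chosen as a list of gene symbols, with no measured value in the rule, and all 40 were found in the gene tables of all 6 libraries, among 31053 genes. They were measured by droplet single-cell RNA sequencing of whole dissociated tumours. The tumours grew from YUMMER1.7, an immunogenic mouse melanoma line derived from its parent by ultraviolet exposure, of which 600000 cells were injected under the skin of male C57Bl/6 mice aged 6 to 8 weeks. Every mouse carried this tumour, and no cells were sorted. The sedentary group (libraries 1, 2 and 3) did not run, and the exercise group (libraries 5, 6 and 8) ran 45 minutes daily at 12 metres per minute for 14 days in a row, starting once tumours were established. Values per library are listed as sedentary 1, 2 and 3, then exercise 5, 6 and 8. Each member is described by its level in 5 classes of cells, by the difference between those classes, by the difference between exercised and sedentary mice within each class, and by the share of cells in which several members were detected together.

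Cells divide by passing through G1, S, G2 and M phases. In late G1, cyclin D and E kinases inactivate the retinoblastoma proteins and free the E2F factors, which switch on the genes of DNA synthesis. Later, the MuvB complex joins B-Myb and FoxM1 to switch on the genes of mitosis, whose products are then destroyed by the anaphase-promoting complex (APC/C). The S members make the replicative helicase (Mcm2 to Mcm7, with Cdc45 and Gins2), its loaders (Cdc6, Cdt1), the sliding clamp and its loader (Pcna, Rfc2), nucleotides (Rrm1, Rrm2, Tyms, Dut), and repair and chromatin proteins (Fen1, Ung, Uhrf1, Hells). The G2/M members make the mitotic kinase and its cyclins (Cdk1, Ccna2, Ccnb1, Ccnb2), other mitotic kinases and checkpoint proteins (Plk1, Aurka, Aurkb, Bub1, Bub1b, Birc5), spindle and kinetochore proteins (Tpx2, Kif11, Nusap1, Hmmr, Cenpe, Cenpf), parts of the ubiquitin machinery (Cdc20, Ube2c) and chromosome proteins (Top2a, Mki67). In tumours, cancer cells are the usual dividing cells, and activated T cells and some macrophages divide as well.

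Promoter letters are shown because the regulators named above bind different short motifs in S and G2/M genes. RefSeq promoters of build GRCm38.p6, each running from 250 bases before to 50 bases after the start of transcription, were found for 17 of 20 G2/M members and 17 of 20 S members. Both strands were searched for TTTGAA, the cell cycle homology region (CHR) bound by MuvB, for CCAAT, bound by NF-Y, and for the E2F letters TTTCCCGC, TTTCGCGC, TTTGCCGC and TTTGGCGC, which can overlap each other on opposite strands. The CHR letters were in 12 of 17 G2/M members and 3 of 17 S members, against 20.2% of 27025 genes. CCAAT was in 15 of 17 G2/M members and 10 of 17 S members, against 41.1% of genes, and both CHR and CCAAT were in 12 of 17 and 2 of 17, against 8.97%. The E2F letters were in 1 of 17 G2/M members, Cdk1, and in 8 of 17 S members, against 2.60% of genes. A match is a description of letters and not a measured site. The 250 bases before the start are printed 5′ to 3′ on the strand of the gene for 2 G2/M members with CHR letters and 2 S members with E2F letters, which are described with values further on. Capitals mark CHR and CCAAT letters, on either strand, in Cdc20 and Cdk1, and E2F letters in Mcm5 and Mcm6.
Cdc20, chr4:118437344-118437593 (reverse strand): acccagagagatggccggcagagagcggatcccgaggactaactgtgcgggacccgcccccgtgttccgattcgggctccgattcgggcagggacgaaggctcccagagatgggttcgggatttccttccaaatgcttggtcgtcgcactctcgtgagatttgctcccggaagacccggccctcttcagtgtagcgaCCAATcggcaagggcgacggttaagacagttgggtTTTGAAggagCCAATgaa
Cdk1, chr10:69352913-69353162 (reverse strand): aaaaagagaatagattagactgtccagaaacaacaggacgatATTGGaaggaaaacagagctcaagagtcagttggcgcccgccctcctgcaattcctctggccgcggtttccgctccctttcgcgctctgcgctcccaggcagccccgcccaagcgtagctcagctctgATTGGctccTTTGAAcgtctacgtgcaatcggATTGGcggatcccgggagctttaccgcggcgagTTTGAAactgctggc
Mcm5, chr8:75109259-75109508 (forward strand): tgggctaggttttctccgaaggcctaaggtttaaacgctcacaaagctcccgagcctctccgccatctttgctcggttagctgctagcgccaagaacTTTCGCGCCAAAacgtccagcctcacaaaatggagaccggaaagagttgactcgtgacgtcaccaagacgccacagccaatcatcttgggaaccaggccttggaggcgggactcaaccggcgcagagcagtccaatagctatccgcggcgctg
Mcm6, chr1:128359706-128359955 (reverse strand): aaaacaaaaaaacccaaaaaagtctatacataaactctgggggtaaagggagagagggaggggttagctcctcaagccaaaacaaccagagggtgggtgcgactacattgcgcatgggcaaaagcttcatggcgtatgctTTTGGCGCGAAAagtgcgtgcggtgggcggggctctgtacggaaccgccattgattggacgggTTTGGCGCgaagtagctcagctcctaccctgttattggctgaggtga

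The libraries held 97426009 to 131778565 unique molecular identifiers (UMIs, each 1 counted RNA molecule) in 8115 to 10913 barcodes, and 51529 of 58351 barcodes were kept. Sedentary 2 and exercise 5 stood apart, with medians of 6490 and 5895 UMIs per kept cell against 10489.5 to 12426 in the others. Any 2 libraries shared 19 to 35 barcode sequences, at most 0.391%. Cells were put into classes by markers that are not members, and 29704 cells were tumour-like, 5006 macrophages, 2429 CD8 T cells, 731 NK cells and 216 dendritic cells, of which only 10 came from sedentary 2. Another 12961 cells (25.2%) fell in none of these classes or the 480 neutrophils. Macrophage markers summed to 18269.9 to 32622 counts per 1000000 UMIs (CPM) in macrophages and 21.1 to 41.7 CPM in tumour-like cells. CD8 T markers summed to 6144 to 7073 CPM in CD8 T cells and 3.48 to 6.69 CPM in tumour-like cells, while NK markers reached 2226 to 3096 CPM in CD8 T cells. The tumour-like cells had Cspg4 at 47.0 CPM and Cdh2 at 52.0 CPM over all libraries, but pigment cell genes were nearly absent: Mlana had 7, Tyr 5, Dct 9, Sox10 2 and Tyrp1 1 of 608417616 UMIs, with Mitf at 9.88 CPM. The 7 fibroblast markers summed to 835 to 1137 CPM in tumour-like cells, of which Col1a2 alone gave 897 CPM over all libraries, against 75.5 CPM in macrophages and 69.2 CPM in CD8 T cells, and the part of host fibroblasts in this class was not tested. The labels do not say that each library is 1 mouse, so p-values measure the spread between these libraries.

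Among cells of at least 2000 UMIs, CD8 T cells and tumour-like cells held the largest shares of dividing cells. At that depth no class had exercise and sedentary shares that stood apart. A cell was called dividing when at least 3 of the 20 G2/M members had a UMI after its counts had been thinned at random to 2000 UMIs. Thinning gave each cell the same depth, but cells below 2000 UMIs were left out, unequally between classes and groups. Over all libraries the dividing share was 24.2% (7060 of 29161 cells) in tumour-like cells, 12.9% (551 of 4257 cells) in macrophages, 28.8% (525 of 1826 cells) in CD8 T cells, 9.88% (40 of 405 cells) in NK cells and 20.7% (43 of 208 cells) in dendritic cells. By library, tumour-like cells stood at 21.99%, 28.8% and 19.9% in the sedentary libraries and 30.8%, 29.1% and 19.9% in the exercised ones. Sedentary 3 and exercise 8 were the lowest and exercise 5 the highest, so each group spanned nearly the same range, with means of 23.6 ± 4.65% (SD, n = 3) and 26.6 ± 5.87% (SD, n = 3). In macrophages the dividing share was 17.8%, 9.08% and 12.95% in the sedentary libraries and 12.3%, 14.2% and 13.7% in the exercised ones. The exercise values lay inside the sedentary range, from 9.08% in sedentary 2 to 17.8% in sedentary 1.

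Among CD8 T cells, 25%, 22.5% and 34.1% in the sedentary libraries and 23.4%, 39.1% and 41.9% in the exercised ones were dividing. The highest 2 values were exercised libraries, but exercise 5 lay below sedentary 1 and sedentary 3, and the means were 27.2 ± 6.12% (SD, n = 3) and 34.8 ± 9.99% (SD, n = 3). The difference of 7.59 percentage points became 0.860 within the shallow pair, exercise 5 minus sedentary 2, and 11.0 among the 4 deeper libraries. It was 2.40 at 1000 UMIs per cell and 1.33 without thinning. In NK cells the share was 9.43%, 12.96% and 12.5% in the sedentary libraries and 0%, 5% and 21.2% in the exercised ones. Exercise 5 was the lowest, with 0 of 60 cells, which allows a share of up to 5% (taking 3 counts as the limit that a count of 0 allows), and exercise 8 the highest, so the exercise group enclosed the sedentary one. Dendritic cells gave 18.2%, 0% and 33.3% in the sedentary libraries and 22.8%, 28.3% and 6.67% in the exercised ones, with 0 of 10 cells in sedentary 2, which allows up to 30%. No order of the groups could be read at these cell numbers. Without sedentary 2 and exercise 5, exercise minus sedentary was 3.55 points in tumour-like cells, -1.45 in macrophages, 2.14 in NK cells and -8.29 in dendritic cells. No p is given for a share over the members, and 3 against 3 libraries could not give less than 0.1 in an exact two-sided permutation test.

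**Figure D1:**
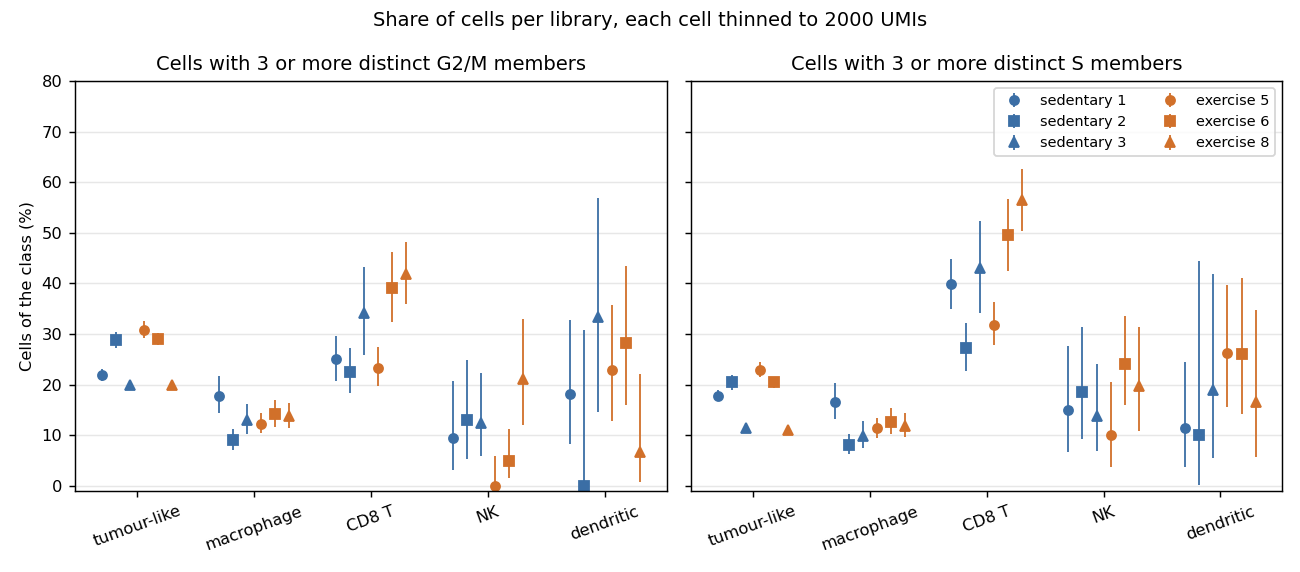
Share of cells (y axis, percent of the class) with at least 3 distinct G2/M members (left) or S members (right) in each class (x axis), each cell thinned to 2000 UMIs. Points are libraries (sedentary blue, exercise orange) and bars are exact 95% binomial intervals, which cover counting error only. CD8 T cells reach 41.9% and 56.6% in exercise 8, and the exercise and sedentary points overlap in every class shown.

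The order of the classes held in most libraries at this depth. The dividing share of CD8 T cells exceeded that of macrophages, NK cells and dendritic cells in 6 of 6 libraries each, and tumour-like cells exceeded macrophages in 6 of 6. CD8 T cells exceeded tumour-like cells in 4 of 6 libraries, and this order turned with depth. At 4000 UMIs per cell CD8 T cells were higher in 6 of 6, and without thinning tumour-like cells were higher in 5 of 6. CD8 T cells exceeded dendritic cells in only 4 of 6 libraries at 1000 UMIs and 4 of 6 without thinning. They exceeded macrophages in 5 of 6 without thinning and NK cells in 5 of 6 at 4000 UMIs. Tumour-like cells exceeded macrophages in 6 of 6 at each depth, but NK cells in only 3 of 6 at 4000 UMIs. Unthinned, 48.9% (14538 of 29704 cells) of tumour-like, 23.5% (1178 of 5006 cells) of macrophage, 30.5% (740 of 2429 cells) of CD8 T, 9.71% (71 of 731 cells) of NK and 28.7% (62 of 216 cells) of dendritic cells passed. Median depth was 17575 UMIs in tumour-like cells, 5027 in macrophages, 3021 in CD8 T, 2134 in NK and 5988.5 in dendritic cells. Thinning to 2000 UMIs left out 157 of 1031 sedentary and 446 of 1398 exercise CD8 T cells, and 102 of 281 and 224 of 450 NK cells. Of tumour-like cells it left out 311 of 14290 sedentary and 232 of 15414 exercise cells. Among the cells kept, dividing CD8 T cells had 1.64 to 2.07 times the median UMIs of other CD8 T cells. The shares at 2000 UMIs therefore describe the deeper cells of each class. How far the cells left out shift the order of classes or the exercise differences was not tested. At 4000 UMIs the CD8 T shares were 55.01 ± 6.37% (SD, n = 3) and 72.3 ± 4.01% (SD, n = 3), and the groups did not overlap, but 619 of 1031 and 1015 of 1398 cells were then left out.

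Neutrophils, which do not divide once mature, served as the level that free RNA in droplets can give. Their median depth was 994 UMIs, so they were compared at 1000 UMIs per cell. There, 6 of 234 neutrophils (2.56%) passed the G2/M limit and 0 of 234 the S limit, which allows up to 1.28%. The other classes had 16.8% (tumour-like), 8.53% (macrophage), 18.97% (CD8 T), 5.32% (NK) and 13.02% (dendritic) past the G2/M limit at that depth. The exact 95% interval of the NK share, 3.78 to 7.26%, overlapped that of the neutrophils, 0.947 to 5.497%.

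Cells with S members were most frequent among CD8 T cells. With the same limit of 3 distinct S members, 39.05% (713 of 1826 cells) of CD8 T cells passed, against 16.4% (4786 of 29161 cells) of tumour-like cells, 11.4% (486 of 4257 cells) of macrophages, 17.5% (71 of 405 cells) of NK cells and 20.2% (42 of 208 cells) of dendritic cells. CD8 T cells were above each other class in 6 of 6 libraries, tumour-like cells included, although unthinned tumour-like cells were above CD8 T cells in 6 of 6. CD8 T cells were above dendritic cells in 5 of 6 at 1000 UMIs and 4 of 6 unthinned. By library the CD8 T share was 39.9%, 27.3% and 43.1% in the sedentary libraries and 31.9%, 49.5% and 56.6% in the exercised ones, with means of 36.8 ± 8.34% (SD, n = 3) and 45.98 ± 12.7% (SD, n = 3). The groups overlapped, since exercise 5 lay below sedentary 1 and 3. The CD8 T difference was 1.71 points at 1000 UMIs per cell and 0.267 without thinning. In tumour-like cells the S-phase share was 17.8%, 20.4% and 11.4% in the sedentary libraries and 22.9%, 20.5% and 11.1% in the exercised ones. Sedentary 3 and exercise 8 were the low libraries, as in the dividing share. Exercise minus sedentary over all libraries was 1.63 points in tumour-like cells, 0.428 in macrophages, 9.21 in CD8 T cells, 2.07 in NK cells and 9.55 in dendritic cells. Without the 2 shallow libraries these were 1.20, -0.997, 11.5, 7.36 and 6.17, and in the shallow pair 2.498, 3.28, 4.56, -8.52 and 16.3.

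The classes differed in how S and G2/M members combined in single cells. In CD8 T cells 19.6% passed the S limit alone, 19.5% passed both and 9.26% passed the G2/M limit alone. Tumour-like cells had the opposite balance, with 7.94%, 8.47% and 15.7%. Macrophages had 6.84%, 4.58% and 8.36%, with the G2/M-only part above the S-only part in 6 of 6 libraries. Over all libraries dendritic cells had 10.6%, 9.62% and 11.1% and NK cells 11.9%, 5.68% and 4.198%, but single libraries differed. Cells past the S limit alone, per cell past the G2/M limit, ran from 0.143 (sedentary 3) to 2.5 (exercise 8) in dendritic cells. In NK cells this ratio was 1.4, 0.571 and 0.667 in the sedentary libraries and 6, 4.2 and 0.286 in the exercised ones, so no balance could be read for either class. The balance in the larger classes turned with depth. At 1000 UMIs per cell 5.98% of tumour-like cells passed the S limit and 16.8% the G2/M limit, and unthinned 67.7% and 48.9%. In CD8 T cells these were 17.2% and 18.97% at 1000 UMIs per cell, and 42.9% and 30.5% unthinned. Macrophages had 4.71% and 8.53%, then 28.0% and 23.5%.

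**Figure D2:**
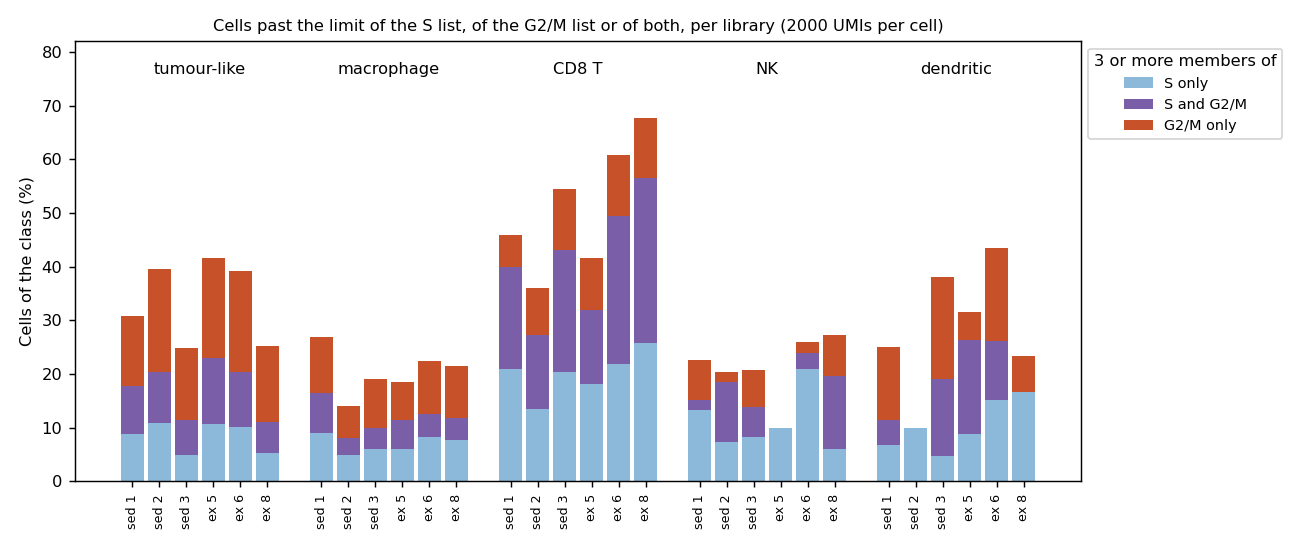
Percent of cells of each class (y axis) in each library (x axis, sed for sedentary and ex for exercise) past the limit of the S list only, of both lists, or of the G2/M list only, at 2000 UMIs per cell. The G2/M-only part is the largest in all 6 tumour-like bars and the smallest in all 6 CD8 T bars.

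The limit of 3 members fell on a slope rather than in a gap. In tumour-like cells 52.0% had no G2/M member at 2000 UMIs, 1703 cells (5.84%) had exactly 2 and 1132 (3.88%) exactly 3. In CD8 T cells 36.4% had none, 173 (9.47%) had 2 and 79 (4.33%) had 3. In macrophages 319 cells had 2 and 112 had 3, and in NK cells 34 and 3. For the S list, 4039 tumour-like cells (13.9%) had 2 and 2135 (7.32%) had 3, so more cells lay at the limit than for G2/M.

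**Figure D3:**
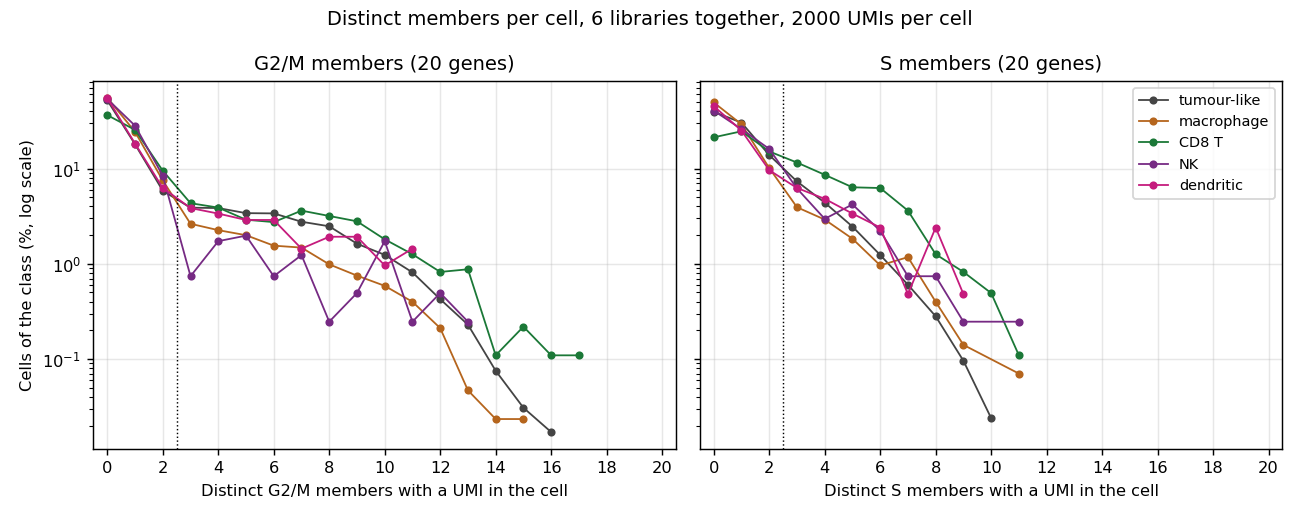
Percent of cells of each class (y axis, log scale) by number of distinct G2/M members (left) or S members (right) with a UMI (x axis), all 6 libraries together at 2000 UMIs per cell. The dotted line marks the limit of 3; the G2/M curves flatten beyond it, while the S curves fall steadily.

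The level of the members in each class was next compared with tumour-like cells of the same libraries, from counts summed over the cells of a class in each library. These 4 contrasts share the tumour-like sums, so their values are given side by side and not counted together. In CD8 T cells all 20 S members were higher than in tumour-like cells, and the G2/M members were mixed. Of the G2/M members 10 were higher and 2 lower (edgeR quasi-likelihood test, Benjamini-Hochberg adjusted p under 0.05), where 32.1% of 13351 genes tested were higher and 40.3% lower. The median log2 difference was 1.02 for S members and 0.30 for G2/M members, against -0.114 for all genes. Many genes differ between 2 cell types, so these shares are the background against which the counts stand.

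Mki67, which coats mitotic chromosomes and marks dividing cells, showed the CD8 T difference most plainly among G2/M members. Over the 6 libraries in that order it stood at 343, 334, 448, 334, 452 and 558 CPM in CD8 T cells and 146, 129, 97.6, 131, 156 and 105 CPM in tumour-like cells. Every CD8 T value was above every tumour-like one, and the log2 fold change was 1.59 ± 0.11 (SE, adjusted p = 3e-12). Nusap1, which bundles spindle microtubules, was higher by 1.42 ± 0.11 (SE, adjusted p = 1.73e-11), and Top2a, which untangles sister DNA, by 0.38 ± 0.10 (SE, adjusted p = 0.00217). Not called were Ccnb1, with -0.21 ± 0.14 (SE, adjusted p = 0.177), Cdc20, whose promoter is printed above, with -0.15 ± 0.14 (SE, adjusted p = 0.347), and Cdk1, with -0.22 ± 0.12 (SE, adjusted p = 0.0967). The kinase Aurka (-0.37 ± 0.15 (SE, adjusted p = 0.0314)) and the APC/C partner Ube2c (-0.24 ± 0.11 (SE, adjusted p = 0.0495)) were lower, and neither call held without the library term in the fit or with a stricter marker gate.

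Among S members in CD8 T cells, Mcm6 of the helicase stood at 154, 131, 123, 127, 133 and 189.6 CPM, against 52.5, 51.2, 29.2, 48.5, 51.5 and 34.1 CPM in tumour-like cells. The 2 ranges do not overlap, and the log2 fold change was 1.602 ± 0.12 (SE, adjusted p = 4.67e-12). Mcm5 had 1.25 ± 0.12 (SE, adjusted p = 1.81e-09) and Pcna 1.29 ± 0.13 (SE, adjusted p = 1.9e-09). Ung, which removes uracil from DNA, had the largest S difference, 1.85 ± 0.26 (SE, adjusted p = 7.14e-07), with 10.5 to 18.4 CPM in CD8 T cells and 1.54 to 5.01 CPM in tumour-like cells. The S genes outside the members followed, with 17 of 20 higher and none lower, led by Rpa2 of the single-strand binding complex at 2.104 ± 0.12 (SE). Of the other G2 and M genes 11 of 22 were higher and 4 lower, and Anln, an anchor of the cleavage furrow, was lower at -2.05 ± 0.10.

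Some of the genes that open or hold back the cycle differed by more than any member. Ccnd1, a D-type cyclin of G1, was lower in CD8 T cells at -3.67 ± 0.10 (SE, adjusted p = 1.59e-20), with 42.7 to 90.4 CPM against 655 to 998 CPM. The CDK inhibitor gene Cdkn1a was lower at -3.495 ± 0.11 (SE, adjusted p = 2.72e-19), and the pocket protein gene Rbl2 higher by 2.92 ± 0.11 (SE, adjusted p = 9.66e-18). Mdm2, which restrains p53, had -1.31 ± 0.099 (SE), Cdc16 of the APC/C -1.03 ± 0.12 and Lin37 of MuvB 0.96 ± 0.14, all past the threshold. Of 8 G1 cyclin and kinase genes 4 were higher and 2 lower in CD8 T cells. Of 12 E2F and pocket protein genes 7 were higher and 4 lower.

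Macrophages carried fewer transcripts of mitosis genes than tumour-like cells, while S members were called no more often than other genes in either direction. Of 20 G2/M members 16 were lower and only Mki67 was higher, where 42.1% of 13761 genes were lower and 37.0% higher by the same test. Of 20 S members 6 were higher and 6 lower, in each direction a smaller share than over all genes. The medians were -0.86 for G2/M and 0.07 for S members, against -0.079 for all genes. Cdc20 stood at 20.5, 9.998, 16.4, 17.4, 20.5 and 20.4 CPM in macrophages and 49.9, 54.9, 45.3, 56.5, 61.9 and 48.5 CPM in tumour-like cells. No macrophage value reached the tumour-like range, and the log2 fold change was -1.61 ± 0.12 (SE, adjusted p = 2.22e-08). Ube2c had -1.56 ± 0.079 (SE, adjusted p = 2.41e-10), Cenpf of the kinetochore -1.53 ± 0.092 (SE, adjusted p = 1.55e-09), Ccnb1 -1.21 ± 0.087 (SE, adjusted p = 1.28e-08) and Top2a -0.97 ± 0.084 (SE, adjusted p = 8.79e-08). Mki67 went the other way, at 0.34 ± 0.074 (SE, adjusted p = 0.000733).

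Single S members of macrophages went either way, which the shares over all genes do not set apart from other genes. Dut, which keeps uracil out of DNA by splitting dUTP, had 80.03, 40.4, 51.8, 52.5, 69.3 and 51.2 CPM in macrophages and 199, 193, 205, 231, 252 and 215 CPM in tumour-like cells. This was the largest member difference in that class, -1.93 ± 0.10 (SE, adjusted p = 3.29e-10). Ung was higher (1.07 ± 0.17 (SE, adjusted p = 4.77e-05)), as were Cdt1 (0.99 ± 0.10 (SE, adjusted p = 6.22e-07)) and Pcna (0.73 ± 0.098 (SE, adjusted p = 9.09e-06)). Mcm5 passed narrowly at 0.20 ± 0.072 (SE, adjusted p = 0.0228), and lost the call without the filter on low counts, without the library term, and without sedentary 1, exercise 5 or exercise 8. Outside the members, 19 of 22 other G2 and M genes were lower and 1 higher, 9 of 10 APC/C genes lower and 1 higher, and 8 of 20 other S genes lower and 4 higher. The leading genes of the lists were Anln (-2.26), Cdkn2a (-3.76), Ccnd1 (-1.596), E2f2 (3.01), Cdc25b (-1.72), Ube2s (-0.97), Orc6 (-1.17) and Rbbp4 (-0.48), all past the threshold. Cdkn2a, which encodes a CDK inhibitor and is lost in the parent of YUMMER1.7, stood at 31.2 to 48.7 CPM in tumour-like cells. A 3′ count does not tell whether that RNA makes the protein.

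NK cells, too, had lower mitosis gene levels than tumour-like cells, and few S differences. Of 20 G2/M members none was higher and 16 were lower, where 21.8% of 12906 genes were higher and 32.9% lower. Of 20 S members 5 were higher and 3 lower. Medians were -0.73 and 0.10, against -0.232 for all genes. Cdk1, whose promoter is printed above, had 29.9, 54.6, 27.4, 13.4, 33.4 and 31.95 CPM in NK cells and 80.8, 83.5, 69.5, 102, 98.2 and 62.2 CPM in tumour-like cells. Exercise 5 was the lowest NK library, and the log2 fold change was -1.47 ± 0.18 (SE, adjusted p = 1.04e-12). Ube2c (-1.56 ± 0.14 (SE, adjusted p = 3.93e-21)), Cdc20 (-1.29 ± 0.22 (SE, adjusted p = 1.17e-07)), Tpx2 (-1.205 ± 0.16 (SE, adjusted p = 5.84e-11)) and Ccnb1 (-0.73 ± 0.19 (SE, adjusted p = 0.000558)) were also lower. Mki67 did not differ past the threshold, at 0.10 ± 0.14 (SE, adjusted p = 0.591), and Top2a was lower at -0.68 ± 0.12 (SE, adjusted p = 5.96e-07), a call lost without the library term. Higher were Ung (1.23 ± 0.44 (SE, adjusted p = 0.0131)), Mcm6 (0.90 ± 0.15 (SE, adjusted p = 1.33e-07)), the clamp loader gene Rfc2 (0.80 ± 0.15 (SE, adjusted p = 1.91e-06)), Pcna (0.69 ± 0.21 (SE, adjusted p = 0.00303)) and Mcm4 (0.62 ± 0.17 (SE, adjusted p = 0.000656)), while Mcm5 had 0.17 ± 0.21 (SE, adjusted p = 0.513).

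Of the pathway lists in NK cells, 15 of 22 other G2 and M genes were lower and 1 higher, 7 of 10 APC/C genes were lower, and 2 of 20 other S genes were higher and 3 lower. Their leading genes were Anln (-2.69), Ccnd1 (-3.11), Cdkn1a (-3.39), Rbl2 (2.66), Atr (1.69), Slbp (0.88), Ube2s (-0.64) and Foxm1 (-1.44), all past the threshold. Foxm1, the factor that drives mitosis genes, was the only one of the MuvB, B-Myb and FoxM1 list called lower. In the NK sums 1 UMI is worth more than in tumour-like sums, since NK cells held 1916030 UMIs in all against 608417616.

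Dendritic cells, few in number, were mixed. Of 20 G2/M members 3 were higher and 9 lower, and of 20 S members 6 were higher and 2 lower, where 17.7% of 12768 genes were higher and 29.6% lower. Medians were -0.44 and 0.33, against -0.348 for all genes. The 3 higher G2/M members were Mki67 (0.79 ± 0.14 (SE, adjusted p = 1.7e-07)), Nusap1 (0.82 ± 0.18 (SE, adjusted p = 3.05e-05)) and Aurkb (0.73 ± 0.25 (SE, adjusted p = 0.00817)). Mki67 stood at 227, 18.4, 336, 312, 283 and 102 CPM in dendritic cells, where the lowest value is the sedentary library with 10 cells. Lower were Cenpf (-1.15 ± 0.16 (SE, adjusted p = 1.08e-11)), Ccnb1 (-1.07 ± 0.26 (SE, adjusted p = 0.000125)), Cdc20 (-0.91 ± 0.25 (SE, adjusted p = 0.000735)) and Ube2c (-0.82 ± 0.15 (SE, adjusted p = 3.35e-07)), and Top2a had -0.18 ± 0.13 (SE, adjusted p = 0.257). Of the S members, Ung (1.81 ± 0.45 (SE, adjusted p = 0.000205)), Mcm5 (0.82 ± 0.23 (SE, adjusted p = 0.00129)) and Pcna (0.72 ± 0.25 (SE, adjusted p = 0.0105)) were higher and Dut (-0.74 ± 0.15 (SE, adjusted p = 4.78e-06)) lower. Pcna lost the call without exercise 6 and without exercise 8.

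Among pathway genes in dendritic cells, 7 of 20 other S genes were higher and none lower, and 7 of 22 other G2 and M genes were lower and 1 higher. The leading gene was higher for Ccnd3 (1.95), E2f2 (3.52), Gins3 (2.03) and Lin37 (0.91), and lower for Anln (-2.796), Cdkn1a (-1.46), Mdm2 (-1.38), Foxm1 (-1.58) and 3 APC/C genes, Cdc16 (-1.58), Cdc27 (-1.06) and Anapc1 (-0.74), with adjusted p under 0.05 for each. Over the 4 contrasts, another scaling (size factors of DESeq2 in place of TMM) turned no member's direction.

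**Figure D4:**
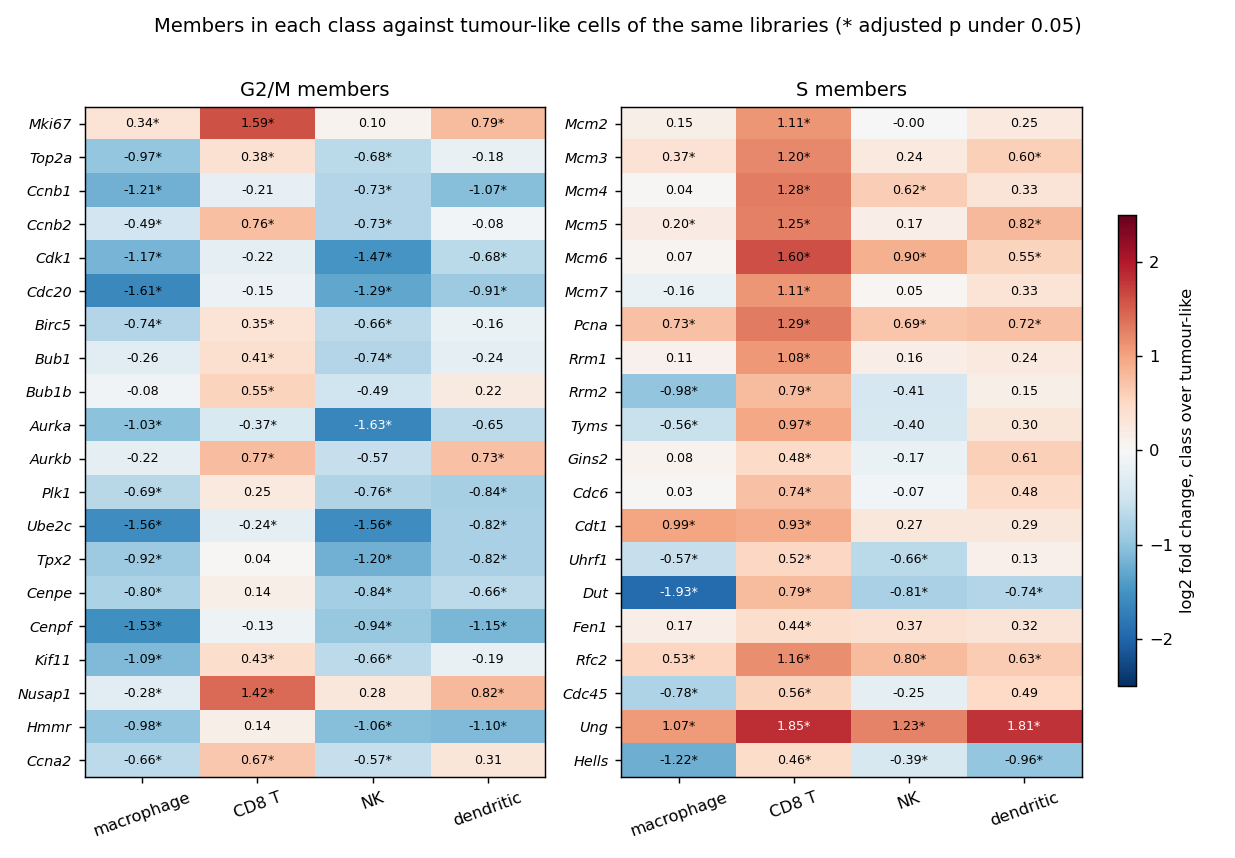
log2 fold change of each member (rows; G2/M left, S right) in each class (columns) over tumour-like cells of the same 6 libraries, colour and number alike, with * for an adjusted p under 0.05. The S members are positive throughout the CD8 T column, and 16 G2/M members are called lower in the macrophage column and 16 in the NK column.

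Exercise changed no member past the threshold in any class. In tumour-like cells all 40 members were tested, 0 of them passed, and 0% of 14464 genes did, so the comparison called nothing at all (edgeR quasi-likelihood test). DESeq2 called 0 members in this class and in each of the other 4. At an unadjusted p under 0.05 stood 1 member, Dut, where 4.11% of genes did. Dut had 199, 193 and 205 CPM in the sedentary libraries and 231, 252 and 215 CPM in the exercised ones. All exercise values were above all sedentary ones, which held for no other member and for 8.66% of genes. Its log2 fold change was 0.22 ± 0.083 (SE, adjusted p = 0.999).

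The other members of tumour-like cells leaned slightly upward together. Of G2/M members 18 of 20 had a log2 fold change above 0, with a median of 0.115, and of S members 19 of 20, with a median of 0.0757, against 0.00226 for all genes. Mki67 had 146, 129 and 97.6 CPM in the sedentary libraries and 131, 156 and 105 CPM in the exercised ones. Sedentary 3 and exercise 8 were the low library of their groups, and the log2 fold change was 0.079 ± 0.17. Cdc20 had 49.9, 54.9 and 45.3 CPM in the sedentary libraries and 56.5, 61.9 and 48.5 CPM in the exercised ones. Exercise 8 lay below sedentary 1 and 2, and the log2 fold change was 0.16 ± 0.11. Top2a (0.043 ± 0.14), Ccnb1 (0.072 ± 0.12), Mcm5 (0.036 ± 0.19) and Pcna (0.12 ± 0.26) differed from 0 by less than their standard errors. The lean turned with single libraries. Without sedentary 3 the S count was 6 of 20 (median -0.10), without exercise 5 it was 5 of 20, and without exercise 6 both lists had 11 of 20 above 0. With all libraries, the 22 other G2 and M genes all lay above 0, as did 16 of 20 other S genes, and none passed. These genes come from the same sums as the members, and their counts without single libraries are not given. They are therefore no separate support for the lean.

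Tyms, which makes thymidylate, had 0.23, and Bub1b (-0.045), Nusap1 (-0.045) and Mcm7 (-0.066) were the 3 members below 0. Of pathway genes in tumour-like cells, those with the smallest unadjusted p in their lists were Cdc25b (0.17), which activates CDK1, E2f8 (0.20), Cdkn1b (-0.24), Ccnd1 (0.19), Cks2 (0.14), Ube2s (0.11), Foxm1 (0.19) and Rfc4 (0.18). None had an adjusted p below 0.999. The mean log2(CPM + 1) over G2/M members was 6.07 ± 0.18 and 6.16 ± 0.24 (SD, n = 3) in sedentary and exercise tumour-like cells, and over S members 4.93 ± 0.33 and 5.01 ± 0.36. Both differences were within 1 SD.

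In macrophages, too, 0 of 40 members and 0% of 10599 genes passed, with 0 members at an unadjusted p under 0.05 (2.44% of genes) and 0 with groups apart (7.22%). Of G2/M members 15 of 20 lay above 0 (median 0.0808) and of S members 4 of 20 (median -0.0756), against -0.00505 for all genes. Without sedentary 2 the G2/M count was 5 of 20, and without sedentary 1 the S count was 12 of 20. Cdc20 had 20.5, 9.998 and 16.4 CPM in the sedentary libraries and 17.4, 20.5 and 20.4 CPM in the exercised ones. The groups overlapped, and the log2 fold change was 0.31 ± 0.23. Mki67 had 199, 129 and 148 CPM in the sedentary libraries and 159, 187 and 139.9 CPM in the exercised ones, and the log2 fold change was -0.00041 ± 0.16. Sedentary 1 was the highest of the 6. Top2a (-0.04), Ccnb1 (0.058), Mcm5 (0.031), Pcna (-0.18), Cenpe (0.23), Ube2c (0.21), Mcm7 (-0.27), Rfc2 (-0.17) and Ung (-0.32) did not pass either. Among pathway genes Tfdp1, the partner of E2F, was lowest in p with -0.46 ± 0.19 (SE, adjusted p = 0.9995). Mdm2 (-0.34), Cdk6 (-0.26), Cdc25c (0.64), Cdkn2d (-0.23), Tk1 (-0.31), Rbbp4 (-0.15) and Cdc27 (-0.15) led the other lists, and none passed. The mean log2(CPM + 1) was 5.27 ± 0.30 and 5.38 ± 0.13 over G2/M members and 4.91 ± 0.30 and 4.86 ± 0.09 over S members (SD, n = 3).

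In CD8 T cells no member was called. Of 40 members 0 passed, where 0.0114% of 8741 genes did, 0 had an unadjusted p under 0.05 (2.62% of genes) and 0 had groups apart (7.69%). Of G2/M members 17 of 20 lay above 0 (median 0.135) and of S members 13 of 20 (median 0.0983), against 0.00112 for all genes. Without exercise 8 the G2/M count was 4 of 20, with a median of -0.15, and the S count 8 of 20. Mki67 had 343, 334 and 448 CPM in the sedentary libraries and 334, 452 and 558 CPM in the exercised ones. Exercise 8 was the highest and exercise 5 and sedentary 2 the lowest, and the log2 fold change was 0.24 ± 0.17. Top2a had 511, 503 and 448 CPM in the sedentary libraries and 358, 552 and 705 CPM in the exercised ones. Here exercise held both the highest and the lowest library, and the log2 fold change was 0.10 ± 0.18. Mcm5 had 73.9, 62.7 and 62.4 CPM in the sedentary libraries and 63.6, 79.1 and 101 CPM in the exercised ones, with a log2 fold change of 0.23 ± 0.18. The groups overlapped through exercise 5.

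The CD8 T members with the smallest unadjusted p were the cyclin A gene Ccna2 (0.38), the mitotic kinase gene Plk1 (0.44) and Hells (0.29) above 0, and Tyms (-0.26), Fen1 (-0.19) and Aurkb (-0.077) below. Ccnb1 (0.13), Cdc20 (0.21) and Pcna (0.23) lay above 0. E2f7, a repressor among the E2F genes, had the smallest p of the pathway genes, at 0.74 ± 0.26 (SE, adjusted p = 0.9998). Fbxo5 (0.49), which inhibits the APC/C, Ckap2 (0.36), Pold1 (0.38), Foxm1 (0.34), Atm (-0.32), Cdk4 (-0.22) and Cdkn2d (-0.32) led the other lists, and none passed. The G2/M score was 6.47 ± 0.17 and 6.59 ± 0.45 and the S score 5.99 ± 0.10 and 6.08 ± 0.28 (log2(CPM + 1), SD, n = 3).

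In NK cells 12 G2/M and 12 S members had enough counts to be tested, and the other 16 members were not tested. Of the 24, 0 passed, where 0.122% of 4084 genes did, 3 had an unadjusted p under 0.05 (4.26% of genes) and 2 had groups apart (9.43%). The tested G2/M members lay mostly below 0, with 1 of 12 above and a median of -0.524, and of the S members 3 of 12 lay above 0, with a median of -0.269, against -0.00686 for all genes. Without exercise 5, where none of 60 cells was dividing, 5 of 16 G2/M members tested lay above 0 (median -0.23) and 7 of 13 S members (median 0.01). Birc5, which makes survivin, had 149.7, 109 and 104 CPM in the sedentary libraries and 20.1, 69.1 and 99.05 CPM in the exercised ones. Every exercise value was below every sedentary one, and exercise 5 far below the rest. The log2 fold change was -0.91 ± 0.32 (SE, adjusted p = 0.995). Cenpf had 239.5, 126 and 116 CPM in the sedentary libraries and 20.1, 103 and 128 CPM in the exercised ones, from 223 UMIs in all. Here exercise 8 lay above sedentary 2 and 3, and the log2 fold change was -0.88 ± 0.36 (SE, adjusted p = 0.995).

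The third was Rrm1 of ribonucleotide reductase, with 64.2, 98.9 and 73.1 CPM in the sedentary libraries and 43.5, 42.4 and 63.9 CPM in the exercised ones. Its groups did not overlap, and the log2 fold change was -0.71 (adjusted p = 0.995, edgeR). Mki67 had 154, 191 and 107 CPM in the sedentary libraries and 26.7, 114 and 323 CPM in the exercised ones, so exercise 5 was the lowest and exercise 8 the highest of all, with a log2 fold change of 0.018. Top2a (-0.0031), Mcm5 (0.013), Pcna (0.061) and Fen1 (0.37) did not pass, and Ccnb1 and Cdc20 were not tested. Pathway genes leading their lists were E2f4 (1.05), Cdca8 (-1.05), Cdk4 (0.50), Orc6 (-0.61), Ube2s (-0.31), Atr (0.36), Cdkn2d (0.16) and Rbbp4 (-0.0048), with none past the threshold. The G2/M score was 5.64 ± 0.38 and 4.68 ± 1.41 and the S score 5.28 ± 0.29 and 4.87 ± 0.50 (log2(CPM + 1), SD, n = 3), the groups overlapping in both.

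In dendritic cells 13 G2/M and 10 S members were tested. The filter on low counts asks for enough counts in 3 libraries, the size of a group. A gene can therefore pass it through 1 group alone. Of these 23, 0 passed, where 0% of 3245 genes did, and 5, all S members, had groups apart, where 12.8% of genes did. At an unadjusted p under 0.05 stood 3 S members (6.59% of genes). Pcna had 15.8, 18.4 and 38.7 CPM in the sedentary libraries and 57.6, 62.9 and 47.8 CPM in the exercised ones. Every exercise value exceeded every sedentary one, and the log2 fold change was 1.29 ± 0.45 (SE, adjusted p = 0.672). Mcm7 had 34.7, 36.8 and 38.7 CPM in the sedentary libraries and 73.3, 62.9 and 77.7 CPM in the exercised ones, the sedentary values lying close together, with a log2 fold change of 0.95. Mcm4 (1.02), Mcm6 (0.70) and Mcm3 (0.36) were the other helicase genes with groups apart, while Mcm5 had -0.049. Pcna and Mcm7 met the filter on low counts only through the exercise libraries, so their separation was partly set by it. The counts of tested S members apart or above 0 share this limit and are no support for an exercise difference. In sedentary 2 the sums held 54320 UMIs from 10 cells, so that 3 counts are worth 55.2 CPM there, and Cenpf had 0. The Pcna (18.4 CPM) and Mcm7 (36.8 CPM) values of that library also lay below 3 counts. Their place relative to the other libraries is therefore uncertain. Without the 2 shallow libraries 9 of 10 S members tested lay above 0 (median 0.31), against 8 of 10 with them (median 0.557). With no filter on low counts 19 of 20 S members lay above 0 (median 0.626), and 0 were called.

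The dendritic G2/M members lay on both sides, with 5 of 13 above 0 and a median of -0.0783, and without sedentary 3 the count was 12 of 15. Mki67 had 227, 18.4 and 336 CPM in the sedentary libraries and 312, 283 and 102 CPM in the exercised ones. Sedentary libraries were both the lowest and the highest, and the log2 fold change was 0.11. Top2a (0.043), Nusap1 (-0.58), Kif11 (-0.66) and Cdk1 (-0.37) did not pass. Of pathway genes Cdk4 (0.83), the kinase of D-type cyclins, Slbp (0.72), Fbxo5 (0.52), Incenp (-0.79), Trp53 (-0.55), Cdkn2d (-0.44) and Rbbp4 (-0.20) led their lists, none past the threshold. The S score was 4.65 ± 0.47 and 5.52 ± 0.39 and the G2/M score 4.53 ± 2.86 and 5.57 ± 0.51 (log2(CPM + 1), SD, n = 3). The groups did not overlap in the S score, which held for no other score or class, and overlapped in the G2/M score. Without each library in turn the S score difference was 0.598 to 1.09. No p is given for a score, and the value of sedentary 2 comes from 10 cells.

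**Figure D5:**
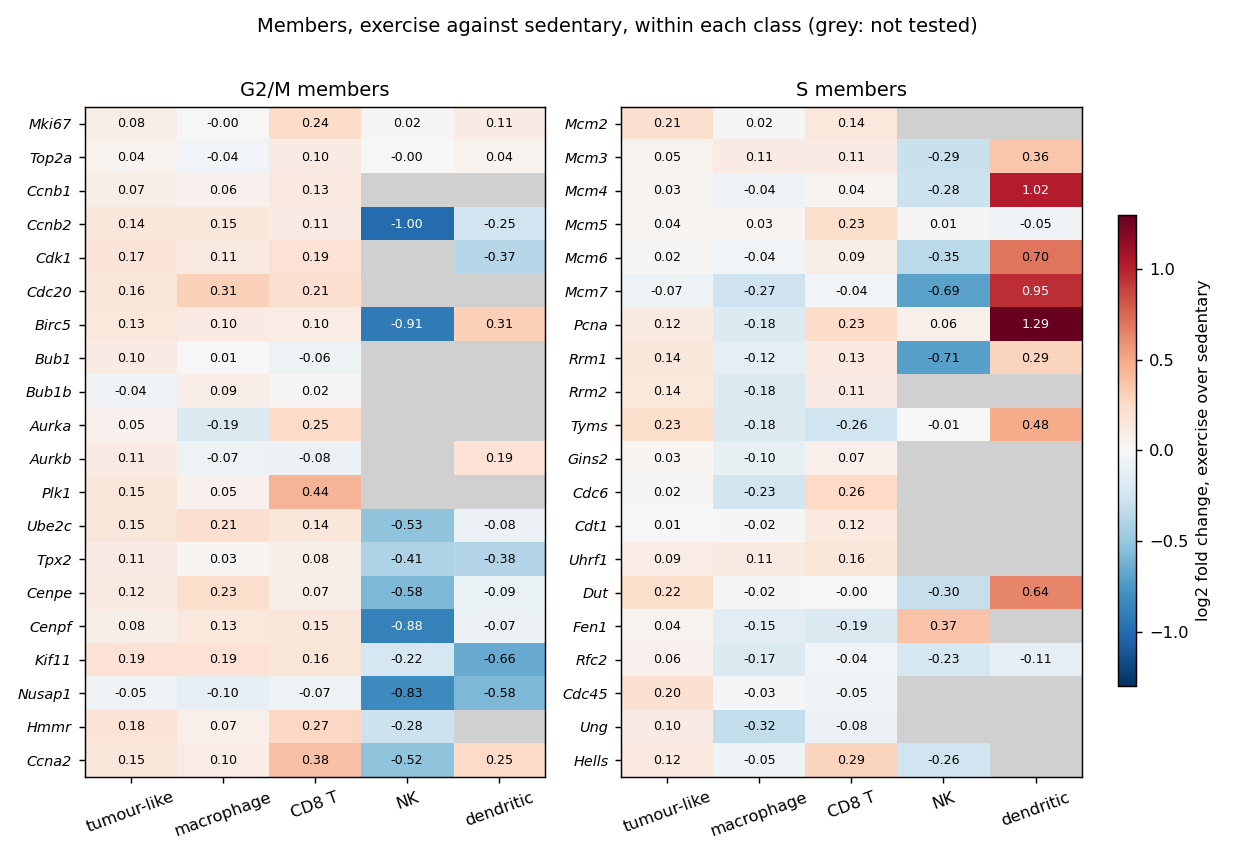
log2 fold change of each member (rows; G2/M left, S right), exercise over sedentary, within each class (columns), with 3 libraries a group; grey cells were not tested. No cell has an adjusted p under 0.05, the tumour-like, macrophage and CD8 T values lie between -0.32 and 0.44, and the NK and dendritic values spread wider.

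Whether exercise differences themselves differed between a class and tumour-like cells was tested as an interaction over both classes and all libraries. Of 40 members 0 passed for macrophages (0% of 14558 genes), 0 for CD8 T cells (0.126% of 14312) and 0 for dendritic cells (0.0296% of 13534). In NK cells 1 member passed, Cenpf (0.162% of 13602 genes), whose log2 fold change under exercise differed by -0.996, NK minus tumour-like (edgeR adjusted p = 0.0324). Tumour-like cells had 203, 222 and 183 CPM in the sedentary libraries and 199.9, 262 and 181 CPM in the exercised ones. The NK values given above are lowest in exercise 5, and without that library the adjusted p was 0.982. It was 1 without sedentary 1, 0.218 without exercise 6 and 0.204 with a stricter marker gate. Over the 9 settings run, 6 members were called at least once in NK cells, all G2/M members. Without exercise 8 these were Cenpf, Birc5, Ccnb2, Mki67, Nusap1 and Top2a, with Birc5 at -1.67 and Mki67 at -1.28. In CD8 T cells 1 member was called in 1 setting, Hells without exercise 5, at 0.65 (edgeR adjusted p = 0.0272). In the whole tumour, all kept cells summed, 0 of 40 members passed (0% of 15482 genes).

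Dividing cells were last compared with the other cells of their class, as a description, since the G2/M members chose them. In tumour-like cells the median UMIs of dividing cells were 1.505 to 2.11 times those of other cells, in macrophages 1.27 to 1.94 and in CD8 T cells 1.64 to 2.07. Of the dividing cells 78.1% were tumour-like, 6.09% macrophages, 5.81% CD8 T, 0.442% NK, 0.476% dendritic and 9.09% in no class. The S members, which did not enter the choice, were higher in CPM in dividing cells in 6 of 6 libraries for 17 of 20 genes in tumour-like cells, 14 of 20 in macrophages and 14 of 20 in CD8 T cells. The share of all genes higher or lower in 6 of 6 libraries is not given here. These counts therefore have no background to be read against. The mean log2 ratios of the 4 nucleotide genes were these: Rrm1 1.83, 2.41 and 1.61 in those 3 classes, Rrm2 1.76, 2.94 and 2.71, Tyms 1.64, 2.49 and 1.599, and Dut 0.42, 1.48 and 0.78. The loader gene Cdt1 was nearly level at 0.21, 0.18 and 0.12. Ung went the other way in tumour-like cells, 2.17 CPM in dividing and 4.42 CPM in other cells, and in CD8 T cells, 10.9 and 18.5 CPM, lower in 6 of 6 libraries each.

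Regulators of the cycle were mixed, and the genes named here were chosen after their values were seen. Their counts, too, stand without a share over all genes. Of 7 CDK inhibitor genes 1 was higher and 1 lower in dividing cells in 6 of 6 libraries of tumour-like cells, 2 and 2 of macrophages, and 3 and 0 of CD8 T cells, with median log2 ratios of -0.128, -0.241 and -0.204. Of 8 G1 cyclin and kinase genes 5 were higher and 2 lower, 4 and 2, and 2 and 3, and of 12 E2F and pocket protein genes 9 and 1, 7 and 0, and 6 and 0. The CDK inhibitor gene Cdkn2d was higher in dividing cells in 6 of 6 libraries of each class, by mean log2 ratios of 1.84 in tumour-like cells, 1.61 in macrophages and 1.28 in CD8 T cells. Its relative Cdkn2c was higher in macrophages (2.77) and CD8 T cells (1.28) in 6 of 6 libraries, and had -0.15 in tumour-like cells. The cyclin gene Ccnd3 was lower in 6 of 6 libraries of each class (-0.54, -0.47 and -0.50), whereas Ccne1 was higher (0.60, 1.99 and 1.304). Ccnd1 was higher in dividing tumour-like cells (0.63) and lower in dividing macrophages (-0.50) and CD8 T cells (-0.74), in 6 of 6 libraries each. The repressors E2f7 and E2f8 were higher in 6 of 6 libraries of all 3 classes, E2f7 by 1.77, 2.75 and 1.999.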

How the data were processed

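The 6 droplet libraries of dissociated tumours were prepared with 10x Genomics 3′ version 3 chemistry, per the labels. The authors deposited raw UMI counts per gene and barcode. Per the submitters' processing notes these were made with Cell Ranger 6.1.2 and build mm10, while the file headers give software version 3.1.0, so which version made the counts is not settled. A 3′ count does not separate isoforms or overlapping genes.

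Kept barcodes had 300 genes or more, 500 UMIs or more and a mitochondrial share no higher than 20%. Scrublet (scanpy 1.11.5, seed 1) called 0.946 to 2.42% of a library doublets, below the 5.76 to 8.06% expected at 0.8% per 1000 barcodes, so doublets remain. Cells were classed by fixed marker genes that are not members. A leukocyte needed at least 20 leukocyte UMIs per 10000 and 3 distinct markers, and a tumour-like cell at most 4 leukocyte UMIs per 10000, 3 tumour markers and at most 5 Col1a1 UMIs per 10000. These limits were set after the data were seen, as were the stricter ones. Cells between the limits (1976) or high in both (1064) entered no class. Shares carry exact (Clopper-Pearson) 95% intervals, which cover counting error only, and a count of 0 is given the limit of 3 counts.

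Cells are not replicates. Counts were summed per class and library and tested with edgeR 4.0.16 in R 4.3.3 (quasi-likelihood, TMM, filterByExpr, Benjamini-Hochberg over all genes tested, threshold 0.05), with library as a block between classes. Scores are means of log2(CPM + 1). On simulated counts for the tumour-like exercise comparison, 190 of 193 genes changed 4-fold were recovered with 7 false calls, for the CD8 T exercise comparison 186 of 189 with 12, and for the CD8 T interaction 157 of 200 with 4. The simulated counts had the same fixed dispersion for every gene, not the spread seen between libraries. Changes smaller than 4-fold were not simulated, so recovery of differences as small as those of the members is not known. Neither NK nor dendritic sums, which are smaller, were simulated. DESeq2 1.42.0 was an alternative test.

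The members, the 8 pathway lists (95 genes) and the tests were chosen with earlier results of these data known. Named in each comparison are Mki67, Top2a, Ccnb1, Cdc20, Mcm5 and Pcna, up to 3 members with the smallest p per direction, called members where at most 10, and the leading gene of each pathway list. For interactions and the whole tumour only counts and called members are given. Genes described in dividing cells, and the promoters printed, were chosen after their values were seen.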

Additional observations from a re-analysis of the deposited data

Results flagged for a closer look

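The exercise difference of Cenpf, a kinetochore protein gene of the G2/M list, was not the same in NK cells as in tumour-like cells by a test of the difference itself. The interaction was -0.996 on the log2 scale (edgeR, adjusted p = 0.0324). With DESeq2 size factors it was -1.02 (adjusted p = 0.0163), and without each library in turn it lay between -1.50 and -0.597, always negative. The adjusted p was 1 without sedentary 1, 0.982 without exercise 5, 0.218 without exercise 6 and 0.204 with a stricter marker gate, which kept the direction (-0.95). The NK value of exercise 5 was 20.1 CPM, from a library in which 0 of 60 NK cells were dividing, and 223 Cenpf UMIs were counted in NK cells in all. The part of the few cells and of depth was not tested. Of the other members, Birc5 passed with DESeq2 size factors (adjusted p = 0.0325), and Birc5, Ccnb2, Mki67, Nusap1 and Top2a passed without exercise 8, the library in which NK cells had the highest Mki67 level.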

How the results depend on the processing

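The member calls within classes did not change: 0 members passed for exercise in any of the 5 classes or the whole tumour under any of the alternatives run. Of the shares, scores and counts recomputed, 465 values stayed within their limits and 58 moved. For shares and scores, a difference within its limits can still have changed sign. Of the named genes' values 1747 kept direction and side of the threshold, 87 turned, 30 lost and 5 gained a call. The cause of these changes was not tested.

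Counts of all genes called for exercise moved in several ways. With DESeq2 they were 33 in tumour-like cells, 2 in macrophages, 1 in NK cells and 20 in the whole tumour, against 0, 0, 5 and 0. Without a filter on low counts they were 2 (tumour-like), 27 (macrophage), 33 (CD8 T, against 1), 22 (NK) and 4 (dendritic, against 0). Without sedentary 2 and exercise 5 together 1 gene passed in tumour-like cells. With the stricter gate 0 passed in CD8 T and 0 in NK cells, and with called doublets kept 0 in CD8 T cells. Leaving out each library gave 0 to 2 in CD8 T, 1 to 11 in NK and 0 to 1 in dendritic cells. Interactions ranged from 0 to 9 genes (macrophage), 4 to 54 (CD8 T), 7 to 40 (NK) and 1 to 8 (dendritic), and with the stricter gate were 3 (NK, against 22) and 1 (dendritic, against 4). Members called in at least 1 of 9 interaction settings were 6 in NK cells, 1 in CD8 T cells and 0 in macrophages and dendritic cells.

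Between classes, G2/M members lower in CD8 T cells were 0 with the stricter gate and 0 with no replicate block, against 2, and 0 to 5 without each library. G2/M members higher in NK cells were 1 with the stricter gate, against 0, and 0 to 2 without each library. S members lower in NK cells were 1 with the stricter gate and 1 with no replicate block, against 3, and 1 to 5 without each library. S members higher in NK cells were 3 with no replicate block, against 5.

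For shares, exercise minus sedentary for dividing CD8 T cells (7.59 points) was 17.3 at 4000 UMIs, 2.40 at 1000 UMIs and 1.33 without thinning. For S-phase CD8 T cells (9.21 points) it was 7.81, 1.71 and 0.267. Without thinning it was -5.03 for S-phase NK cells and 4.11 for S-phase dendritic cells. Without each library in turn, several share differences changed sign, yet were counted as within limits. For dividing cells they ran from -6.51 to 10.2 (dendritic), -9.13 to 1.47 (NK) and -1.995 to 2.39 (macrophage). For S-phase cells they ran from -0.925 to 5.15 (tumour-like), -1.29 to 2.95 (macrophage) and -0.985 to 6.01 (NK). Those of dividing tumour-like and CD8 T cells and of S-phase CD8 T and dendritic cells stayed positive.

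Turned log2 fold changes under exercise, all far from the threshold, were these. With DESeq2, Mki67 in macrophages had 0.000736 and Mcm5 in NK cells -0.0107. Without the filter, Mki67 in macrophages had 0.0107, Top2a in NK cells 0.0141, Rbbp4 in NK cells 0.00616 and Mcm5 in dendritic cells 0.0165. Without sedentary 2 and exercise 5, Pcna had -0.11, Bub1b 0.0589 and Nusap1 0.16 in tumour-like cells, Ccnb1 -0.0381 and Mcm5 -0.0435 in macrophages, Atm 0.033 in CD8 T cells, Top2a 0.72 and Rbbp4 0.15 in NK cells, and Mki67 -0.40, Top2a -0.29 and Mcm5 0.23 in dendritic cells. With the stricter gate, Mcm5 in macrophages had -0.00387, Top2a in NK cells 0.0803, Top2a in dendritic cells -0.11 and Mcm5 in dendritic cells 0.00386, and Top2a in dendritic against tumour-like cells 0.0259. With doublets kept, Top2a in NK cells had 0.0479.

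Without each library in turn, tumour-like ranges were -0.0607 to 0.20 (Mki67), -0.0722 to 0.15 (Top2a), -0.0222 to 0.17 (Ccnb1), -0.12 to 0.19 (Mcm5), -0.18 to 0.35 (Pcna), -0.16 to 0.0244 (Bub1b), -0.23 to 0.0741 (Mcm7) and -0.16 to 0.0733 (Nusap1). In macrophages they were -0.12 to 0.16 (Mki67), -0.13 to 0.11 (Top2a), -0.0656 to 0.16 (Ccnb1), -0.0708 to 0.15 (Mcm5) and -0.42 to 0.0355 (Mcm7). In CD8 T cells they were -0.15 to 0.33 (Top2a), -0.32 to 0.35 (Ccnb1), -0.0514 to 0.60 (Cdc20), -0.35 to 0.19 (Aurkb) and -0.59 to 0.0132 (Cdkn2d). In NK cells they were -0.99 to 0.48 (Mki67), -0.97 to 0.44 (Top2a), -0.33 to 0.29 (Mcm5), -0.20 to 0.38 (Pcna) and -0.26 to 0.15 (Rbbp4). In dendritic cells they were -0.15 to 0.52 (Mki67), -0.17 to 0.51 (Top2a), -0.26 to 0.13 (Mcm5), -0.40 to 0.0037 (Cdkn2d) and -0.57 to 0.29 (Rbbp4). Between classes they were -0.29 to 0.0199 (Cdc20, CD8 T), -0.29 to 0.36 (Mki67, NK) and -0.0442 to 0.34 (Mcm5, NK), each against tumour-like cells.

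No paired analysis was possible because the sedentary and exercise libraries share no replicate number. Small sums limit NK and dendritic cells most: 16 and 17 members there had too few counts for the exercise test. Dendritic cells were few (216) but not shallow, with a median of 5988.5 UMIs.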

Other observations

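Genes outside the lists also set dividing cells apart from the other cells of their class, as a description of these libraries with no test. They were chosen after their values were seen, among genes of at least 100 CPM in dividing cells. Raised genes were ranked by the ratio of their lowest library and lowered genes by that of their highest library. Replication-dependent histone genes were among the first in each class, after Knl1 in tumour-like cells: Hist1h2ap stood at 1529 CPM in dividing and 139.9 CPM in other tumour-like cells, 2463 and 128 CPM in macrophages, and 4528 and 262 CPM in CD8 T cells. Knl1, a kinetochore scaffold gene, had mean log2 ratios of 3.74, 3.996 and 3.999 in these 3 classes, higher in 6 of 6 libraries of each.

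In dividing tumour-like cells the nuclear RNA Neat1 (mean log2 ratio -1.65), Dcn (-1.65), Col3a1 (-1.35), Sparcl1 (-1.41), Mgp (-1.27) and Spp1 (-1.36) were each lower in 6 of 6 libraries. They led the lowered genes that still had at least 100 CPM in dividing cells, so more strongly lowered genes may be missing. Genes below that limit were not ranked, and among these the fibroblast marker Dpt had -1.62, lower in 6 of 6 libraries. Of the 7 fibroblast markers 6 were lower in dividing tumour-like cells in 6 of 6 libraries, with a median log2 ratio of -1.11. The share of all genes that were lower in 6 of 6 is not given here. The part of host fibroblasts in these ratios was not tested. In dividing macrophages Plac8, a marker of monocytes, had -2.48 and the chemokine gene Ccl5 -1.97. In dividing CD8 T cells Ccl5 had -1.41, Ly6c2 -1.15 and the adaptor gene Hcst -1.08, each lower in 6 of 6 libraries.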
